A study of Mus musculus with 5 samples.

Results

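The collagen genes of mouse white adipose tissue were described here as a family. Every gene whose symbol has the form Col, a number, the letter a and a second number was taken, which gave 44 of the 32285 genes listed in the deposited count matrices. By chain they fell into 11 fibrillar genes, 6 basement membrane genes, 6 type VI genes and 21 others. The data are single-nucleus RNA sequencing of 5 fat depots from 10-week-old male mice on chow diet, with 1 pooled library per depot. The depots were subcutaneous (SWAT, tissue pooled from 6 mice), epididymal (EWAT, 6 mice), mesenteric (MWAT, 10 mice), perirenal (NWAT, 6 mice) and peri-heart fat (HWAT, 20 mice). The series set out to map the cell types of these depots.

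All mice were described as C57BL/6J in the protocol text, but the strain field of 3 libraries read otherwise: that of MWAT gave C57BL/7J, that of NWAT gave C57BL/8J, and that of HWAT gave C57BL/9J. All animals were perfused with heparin in buffered saline, and lymph nodes were taken out of SWAT and MWAT. No depot carried a genetic change or a treatment. Because each depot is 1 library of pooled animals, no test between depots was possible, and a depot difference cannot be told apart from a difference between libraries. Intervals are exact 95% intervals that cover counting error only, since reads of one library share their source.

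Collagens are secreted triple helices, each built from 3 chains that are encoded by separate genes or by copies of the same gene. Fibrillar chains form the fibers of connective tissue, type IV chains form the sheet of the basement membrane, and type VI chains form beaded filaments around cells. In fat, each adipocyte is wrapped in a basement membrane, while fibers are laid down mainly by stromal cells known as fibro-adipogenic progenitors (FAPs), which carry Pdgfra and Dcn.

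The libraries held 12324 to 19770 nuclei and from 23313545 to 43855063 unique molecular identifiers (UMIs, counted RNA molecules). After removal of doublets, 66220 of 76040 nuclei were kept, with medians of 1188 to 2472 UMIs per nucleus. Clustering without the collagen genes gave 40 clusters, of which 33 were named from marker lists, and names are written as "X-like" for that reason. Unnamed clusters held from 0.0190% of nuclei in EWAT to 6.79% in HWAT. FAP-like nuclei fell into sub-clusters that were each largely from 1 depot: 829 of 866 nuclei from SWAT, 591 of 626 from MWAT, 546 of 589 from EWAT, 478 of 489 from NWAT and 315 of 316 from HWAT. Depot differences of FAP-like nuclei below therefore compare different sub-clusters. Endothelial-like nuclei had 1 such sub-cluster for MWAT (576 of 593) and 1 for HWAT (356 of 362). The HWAT sub-clusters of both classes were led by immunoglobulin genes (Igkc, Jchain) and the airway secretory gene Scgb1a1. The MWAT sub-cluster of FAP-like nuclei had Defa24, Defa30 and the smooth muscle markers Actg2 and Acta2 among its top genes. The 7 smooth muscle markers summed to 576 CPM in FAP-like nuclei of MWAT, against 38.1 (SWAT) to 111 CPM (EWAT) in the other depots. MWAT also held 3713 smooth muscle-like nuclei. The part of such RNA in the MWAT collagen levels was not tested. Pairs of libraries shared 40 to 87 cell barcodes. Classes were named from marker lists, so high sums of a class's own markers follow from the naming. They do not test the labelled tissue. The 8 adipocyte markers summed to 9030 to 12531 CPM in adipocyte-like nuclei. The 8 FAP markers summed to 8195 to 15314 CPM in FAP-like nuclei, and no marker was at 0 in either class. The same 8 FAP markers summed to 6163 to 10119 CPM in mesothelial-like nuclei, above the 4655 to 6325 CPM of that class's own markers, so the FAP list alone does not separate these classes. CPM are the UMIs of a gene divided by all UMIs of a class in a library, times 1000000.

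All 44 collagen genes had at least 1 UMI, and together they gave 302875 UMIs. Of these genes, 42 had 20 UMIs or more, and 34 reached 50 CPM in some class of nuclei in some library. Levels are given for classes with at least 50 nuclei in a library. Reads were captured at the 3′ end, so the CPM of different genes are not compared. The 10 genes that stayed below 50 CPM were Col2a1 with 17 UMIs, Col10a1 with 19, Col22a1 with 23, Col17a1 with 24, Col26a1 with 108, Col9a3 with 110, Col11a2 with 113, Col7a1 with 178, Col13a1 with 199 and Col8a2 with 360. Col8a2, a chain of the network around vessels and of the cornea, was highest in epithelial-like nuclei of EWAT at 38.8 CPM. Col2a1, the cartilage fibril chain, had 8 UMIs in FAP-like nuclei of HWAT (15.8 CPM, interval 6.83 to 31.2) and none in FAP-like nuclei of the other 4 depots. The 17 UMIs of Col2a1 in all kept nuclei lay in 9 nuclei. Some nuclei thus held more than 1, which the interval does not cover.

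The collagen total was highest in FAP-like nuclei in every depot. It was 15197 CPM in SWAT, 10890 in EWAT, 8390 in MWAT, 15341 in NWAT and 6285 in HWAT. SWAT and NWAT were close, and HWAT was lowest, 2.44-fold below NWAT (interval 2.35 to 2.53). With HWAT left out, NWAT stood 1.83-fold above MWAT. Mesothelial-like nuclei, from the lining of the body cavities, came next with 7619 CPM (EWAT), 5171 (MWAT), 6318 (NWAT) and 3550 (HWAT). SWAT had only 2 such nuclei. Several smaller classes also lay above the pericyte-like totals given below. Schwann or glia-like nuclei had 6403 CPM in SWAT (60 nuclei) and 4839 in MWAT, and interstitial cell of Cajal-like nuclei had 4123 in MWAT. Unnamed cluster 36 had 5241 CPM in SWAT, and unnamed clusters 23 and 29 had 5129 and 4565 in MWAT.

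Pericyte-like nuclei carried the 8 pericyte markers, genes of the cells wrapped around small vessels, at 3286, 4170, 3641, 4287 and 4693 CPM in SWAT, EWAT, MWAT, NWAT and HWAT. They also carried the 7 smooth muscle markers at 6161, 11009, 9113, 2373 and 3815 CPM, above their own in SWAT, EWAT and MWAT. The part of smooth muscle transcripts in the depot differences of this class was not tested. Pericyte-like nuclei had a collagen total of 4014, 4907, 3714, 5637 and 2060 CPM in SWAT, EWAT, MWAT, NWAT and HWAT. Endothelial-like nuclei had 1554, 1900, 1348, 1819 and 1058 CPM in the same order. Adipocyte-like nuclei had 1030, 1178, 992, 945 and 642 CPM in that order. HWAT was the lowest depot in each of these classes, and without it the highest depot exceeded the lowest by 1.25-fold in adipocyte-like, 1.41-fold in endothelial-like, 1.47-fold in mesothelial-like and 1.52-fold in pericyte-like nuclei. Immune-like nuclei, which are not known as a source of fibrillar collagen, gave 841, 537, 598, 402 and 323 CPM, and served as a reference level for free RNA. Within this pool, T or NK cell-like nuclei gave 965, 1171, 711, 1049 and 388 CPM, on 66 to 400 nuclei per library. That was close to the adipocyte-like total in SWAT and EWAT and above it in NWAT. The pooled level is therefore not shown to be the most that free RNA can reach. The total in FAP-like nuclei was 14.0-fold (MWAT) to 38.2-fold (NWAT) that in immune-like nuclei. The total in adipocyte-like nuclei was 1.22-fold (SWAT) to 2.35-fold (NWAT) the immune-like level.

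**Figure D1:**
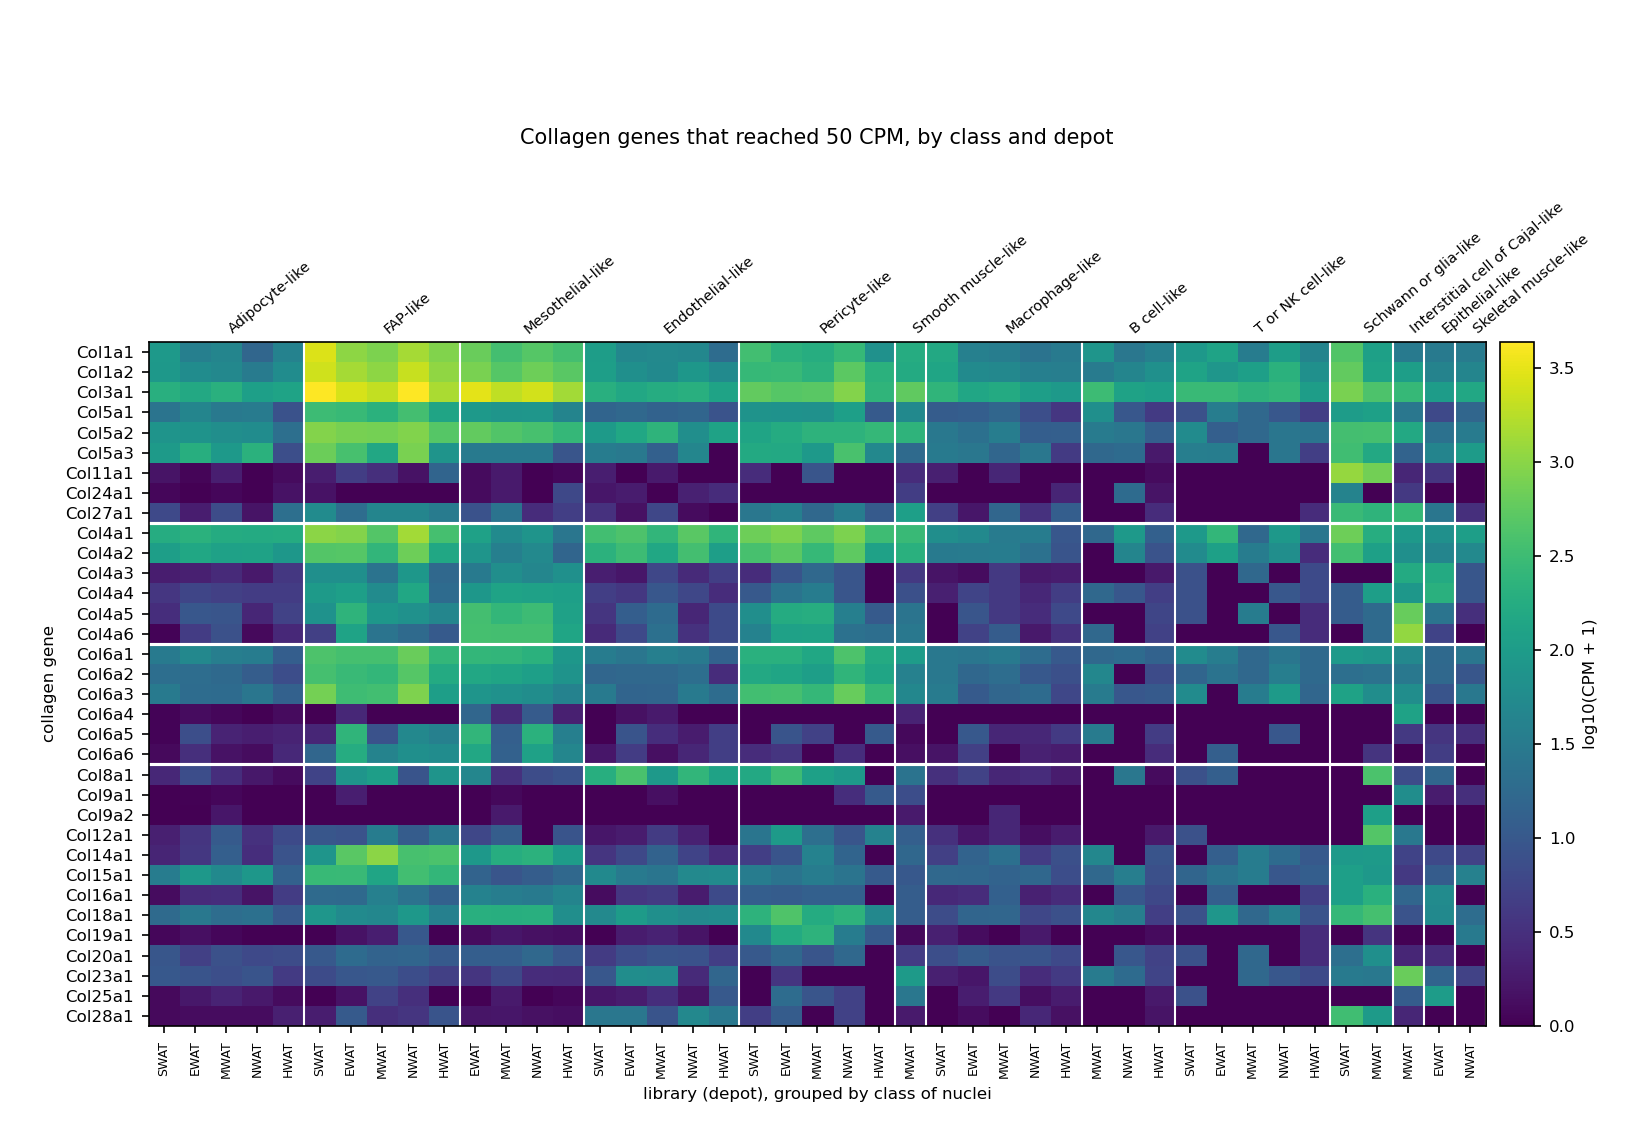
Each row is a collagen gene that reached 50 CPM and each column is a library within a class of nuclei. Color gives log10(CPM + 1), and white lines separate the fibrillar, basement membrane, type VI and other genes. The brightest single column is FAP-like for Col1a1, Col1a2 and Col3a1, although in EWAT the mesothelial-like column is above the FAP-like one for Col3a1. The interstitial cell of Cajal-like column is the brightest for Col4a5 and Col4a6, and the Schwann or glia-like columns are for Col11a1.

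The make-up of the family differed between classes. Fibrillar genes made up 60.3% to 75.4% of collagen UMIs in FAP-like nuclei, with the top value in SWAT, and 64.8% to 71.5% in mesothelial-like nuclei. In adipocyte-like nuclei the fibrillar share was 44.4% to 56.2%, and basement membrane genes took 28.5% in SWAT, 31.8% in EWAT and MWAT, 30.9% in NWAT and 42.1% in HWAT. In FAP-like nuclei the basement membrane share was 9.57% to 17.7%, so it was lower than in adipocyte-like nuclei of every depot. Endothelial-like nuclei carried 32.9% to 47.8% basement membrane UMIs and 21.3% to 33.1% from the other genes. Pericyte-like nuclei had a type VI share of 14.0% to 28.2%. These shares depend on how well each transcript is captured, and only shares of the same genes are set side by side.

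Among the fibrillar genes, Col1a1 and Col1a2 encode the chains of type I collagen, the main fiber of skin, tendon and fat stroma. Col1a1 (ENSMUSG00000001506, chromosome 11, 94936224 to 94953042, plus strand, GRCm38) stood at 2833 CPM in FAP-like nuclei of SWAT, 1054 in EWAT, 827 in MWAT, 1403 in NWAT and 892 in HWAT. SWAT was above the other 4 depots, and MWAT and HWAT were lowest. Its interval in SWAT was 2760 to 2906 CPM, and the next highest, in NWAT, was 1350 to 1457. Col1a2 followed the same depots less closely, with 2412, 1420, 1062, 2147 and 1068 CPM. In adipocyte-like nuclei Col1a1 was at 91.9, 36.5, 44.0, 14.9 and 40.4 CPM, and in immune-like nuclei of the same libraries it was at 150, 39.5, 37.5, 27.0 and 35.7. Adipocyte-like nuclei were thus at 0.551 to 1.17 times the immune-like level of Col1a1, above it beyond the interval in 0 of 5 libraries and below it in 2. For Col1a2 the ratio was 0.640 to 1.07. The source of the type I collagen UMIs in adipocyte-like nuclei was not tested.

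Col3a1, the type III chain that joins type I in soft tissue, lies on chromosome 1 (45311538 to 45349706, plus strand). In FAP-like nuclei it was at 4272 CPM in SWAT, 2624 in EWAT, 2014 in MWAT, 4350 in NWAT and 1497 in HWAT. SWAT and NWAT formed the upper pair and HWAT was lowest, as for the collagen total. With every nucleus thinned to 1000 UMIs, 88.9%, 82.5%, 76.0%, 87.8% and 68.0% of FAP-like nuclei had a Col3a1 UMI, against 8.73% (HWAT) to 17.6% (SWAT) of immune-like nuclei. Adipocyte-like nuclei stood at 10.9% (NWAT) to 17.3% (MWAT). Unthinned, the share was 92.3% of FAP-like and 23.1% of immune-like nuclei in SWAT, at medians of 1646.5 and 1383 UMIs. Mesothelial-like nuclei carried 3127 CPM of Col3a1 in EWAT, 1937 in MWAT, 2489 in NWAT and 1356 in HWAT. Per UMI of the FAP marker Dcn, Col3a1 gave 1.71, 0.590, 0.657, 0.809 and 0.377 UMIs in adipocyte-like nuclei of SWAT, EWAT, MWAT, NWAT and HWAT. The same ratio was 1.33, 0.611, 0.503, 0.510 and 0.239 in immune-like nuclei and 0.931, 0.461, 0.430, 0.619 and 0.164 in FAP-like nuclei.

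Type V chains set the width of fibrils and sit inside them. Col5a1 was at 312, 279, 209, 357 and 132 CPM in FAP-like nuclei of SWAT, EWAT, MWAT, NWAT and HWAT. Col5a2 was at 907, 789, 751, 894 and 477 CPM, the flattest of the 3 chains. Col5a3 (chromosome 9, 20770050 to 20815067, minus strand) varied most, at 657, 383, 153, 810 and 75.1 CPM, so that NWAT was 10.8-fold above HWAT. In contrast to type I, Col5a3 was well above the immune-like level in adipocyte-like nuclei. It was at 94.5 CPM in SWAT, 193 in EWAT, 89.3 in MWAT, 208 in NWAT and 6.60 in HWAT, against 29.8, 27.1, 13.8, 26.6 and 1.85 CPM in immune-like nuclei. The ratio was 3.17 to 7.81 and exceeded 1 beyond the interval in all 5 libraries. After thinning, 8.22%, 16.4%, 7.57%, 17.5% and 0.445% of adipocyte-like nuclei had a Col5a3 UMI, so HWAT was low by this measure too. NWAT exceeded HWAT by 31.5-fold (interval 21.3 to 48.8) in adipocyte-like nuclei and by 7.91-fold (3.33 to 24.6) in pericyte-like nuclei.

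Col27a1, a fibrillar chain best known from cartilage, ran the other way in adipocyte-like nuclei. It was at 5.44 CPM in SWAT, 0.959 in EWAT, 6.05 in MWAT, 0.551 in NWAT and 20.1 in HWAT, where it exceeded NWAT by 36.5-fold (interval 19.3 to 76.1). These levels were 0.258 to 3.95 times those of immune-like nuclei of the same library. They were above them beyond the interval in 1 of 5 libraries and below them in 1. The source of the Col27a1 UMIs in adipocyte-like nuclei was not tested. Different clusters held the adipocyte-like nuclei of the depots: cluster 0 held 77.5% in EWAT and 88.0% in NWAT, cluster 1 held 65.7% in SWAT, cluster 3 held 80.1% in MWAT and cluster 12 held 93.4% in HWAT. Cluster 12 was led by Ucp1, the uncoupling protein of brown fat, which stood at 295 CPM there. In it Col27a1 was at 21.5 CPM and Col5a3 at 6.32 CPM, while HWAT nuclei of cluster 1 had 5.41 CPM of Col27a1, 10.8 of Col5a3 and 54.1 of Ucp1. In cluster 1, Col5a3 was at 76.2 CPM in SWAT, 172 in EWAT, 99.4 in MWAT and 148 in NWAT, so HWAT was also lowest within a shared cluster, on 2 UMIs. The part of the Ucp1-led cluster in these differences was not tested. In mesothelial-like nuclei Col27a1 was at 7.39 CPM (EWAT), 23.4 (MWAT), 1.86 (NWAT) and 3.72 (HWAT), a ratio of 12.6 (4.78 to 47.0) between MWAT and NWAT that was 4.14 with at most 2% mitochondrial UMIs and 4.21 with no doublets removed. The highest values of Col27a1 were 287 CPM (SWAT) and 233 CPM (MWAT) in Schwann or glia-like nuclei and 275 CPM in interstitial cell of Cajal-like nuclei of MWAT, the pacemaker cells of gut muscle.

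The remaining fibrillar genes had few UMIs in fat cells and stroma: at most 7 per library for Col11a1 and 2 for Col24a1 in adipocyte-like and in FAP-like nuclei. Col11a1, which nucleates cartilage fibrils, reached 1170 CPM in Schwann or glia-like nuclei of SWAT on 60 nuclei, and 726 CPM in those of MWAT on 358 nuclei. The class next in line by observed CPM, pericyte-like nuclei, had 1.89 and 8.08 CPM, with only 3 UMIs of Col11a1 over all 5 libraries. Col24a1 was found mainly in an unnamed cluster, number 23, at 137 CPM in HWAT and 131 in MWAT (11 UMIs), and in unnamed cluster 29 of MWAT at 102 CPM.

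The type IV genes sit as 3 head-to-head pairs, and each pair moved together across the 43 combinations of class and library. Col4a1 and Col4a2, which build the common basement membrane, overlap by 22 bases on chromosome 8 (Col4a1 11198423 to 11312826, minus strand, Col4a2 11312805 to 11449287, plus strand). Their log2 CPM had a Pearson correlation of 0.96 and a Spearman correlation of 0.98. Col4a3 and Col4a4, known from the kidney filter, lie 71 bases apart on chromosome 1 and gave 0.84 by either measure. Col4a5 and Col4a6, known from kidney and smooth muscle, lie 1308 bases apart on chromosome X and gave 0.89 and 0.85. These are descriptions: the points share libraries and depth. Genes without a shared start also moved together, with 0.96 and 0.91 for Col1a1 and Col1a2, which lie on different chromosomes. Where the strand of a read was not used in counting, reads of overlapping genes cannot be assigned, and the use of strand is not given in the sources used here.

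The upstream stretches of Col4a5 and Col4a6, the pair that made up most type IV UMIs of mesothelial-like nuclei, are printed 5′ to 3′ from RefSeq (GRCm38.p6), up to the first untranslated base. Those of Col6a5 and Col6a6, which also moved together, follow them. Capitals mark GGGCGG, a motif bound by Sp family factors, and CCAAT, on either strand.
Col4a5, chrX:141475169-141475384, plus strand: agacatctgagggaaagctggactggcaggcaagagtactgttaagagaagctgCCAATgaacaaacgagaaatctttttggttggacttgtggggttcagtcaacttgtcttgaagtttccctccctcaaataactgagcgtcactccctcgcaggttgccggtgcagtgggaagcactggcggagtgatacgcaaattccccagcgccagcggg
Col4a6, chrX:141474077-141474326, minus strand: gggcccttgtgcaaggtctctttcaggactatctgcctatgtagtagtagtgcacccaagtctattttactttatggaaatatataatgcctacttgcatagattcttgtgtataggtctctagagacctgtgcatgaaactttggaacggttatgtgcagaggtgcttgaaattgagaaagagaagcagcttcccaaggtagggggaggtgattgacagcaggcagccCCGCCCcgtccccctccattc
Col6a5, chr9:105960644-105960893, minus strand: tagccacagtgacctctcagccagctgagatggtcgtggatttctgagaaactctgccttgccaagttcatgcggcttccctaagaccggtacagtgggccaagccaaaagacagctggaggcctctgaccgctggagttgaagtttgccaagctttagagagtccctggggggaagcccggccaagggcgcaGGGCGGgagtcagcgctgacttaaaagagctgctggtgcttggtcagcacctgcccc
Col6a6, chr9:105828161-105828335, minus strand: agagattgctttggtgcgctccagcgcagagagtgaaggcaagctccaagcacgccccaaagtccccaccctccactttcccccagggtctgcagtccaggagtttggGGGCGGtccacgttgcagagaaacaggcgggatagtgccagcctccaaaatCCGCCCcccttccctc

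The 250 bases upstream of the start held GGGCGG on either strand in 21 of the 35 collagen genes with an entry in the promoter table (60.0%) and in 32.7% of all 32851 promoters. CCAAT was in 12 of the 35 (34.3%) and in 33.8% of all. The motifs do not overlap each other, and a match is a description of letters only. The printed stretch of Col4a5 had 0 GGGCGG and 1 CCAAT, that of Col4a6 and that of Col6a5 had 1 GGGCGG each, and that of Col6a6 had 2.

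Col4a1 and Col4a2 made up most type IV UMIs in FAP-like, adipocyte-like, endothelial-like and pericyte-like nuclei. In FAP-like nuclei Col4a1 was at 1019 CPM in SWAT, 917 in EWAT, 466 in MWAT, 1369 in NWAT and 364 in HWAT, and Col4a2 at 459, 470, 245, 681 and 148. Adipocyte-like nuclei carried 178, 209, 175, 164 and 175 CPM of Col4a1, and 110, 148, 120, 122 and 83.5 of Col4a2. Immune-like nuclei had 12.0 (HWAT) to 64.2 CPM (SWAT) of Col4a1 and 7.08 (HWAT) to 34.3 CPM (EWAT) of Col4a2. Adipocyte-like nuclei were 2.77-fold to 14.5-fold above them for Col4a1 and 3.45-fold to 11.8-fold for Col4a2, beyond the interval in all 5 libraries. After thinning, 16.1%, 18.0%, 14.8%, 14.0% and 15.4% of adipocyte-like nuclei had a Col4a1 UMI, against 0.905% (HWAT) to 5.02% (SWAT) of immune-like nuclei. Unthinned, the adipocyte-like shares were 27.8%, 35.2%, 22.0%, 36.6% and 24.9%, with median depths of 1465 to 3158 UMIs.

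Pericyte-like nuclei had 677, 831, 542, 820 and 325 CPM of Col4a1 and 373, 525, 275, 547 and 118 of Col4a2. Endothelial-like nuclei had 341, 416, 246, 509 and 237 CPM of Col4a1 and 217, 308, 145, 350 and 108 of Col4a2. HWAT was the lowest depot for both genes in FAP-like, pericyte-like and endothelial-like nuclei, though its endothelial-like level of Col4a1 was close to that of MWAT. Col4a1 and Col4a2 together took 93.4% to 98.0% of type IV UMIs in adipocyte-like nuclei and 88.2% to 98.8% in endothelial-like nuclei.

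Mesothelial-like nuclei showed the reverse: Col4a5 and Col4a6 took 69.8% of type IV UMIs in EWAT (interval 68.3% to 71.4%), 68.3% in MWAT, 69.8% in NWAT and 53.9% in HWAT (52.0% to 55.8%). Col4a5 was at 358 CPM (EWAT), 256 (MWAT), 313 (NWAT) and 119 (HWAT). Col4a6 was at 361, 350, 356 and 139 CPM in the same order, level in 3 depots and lower in HWAT. Col4a1 was at 120, 53.7, 75.0 and 26.2 CPM and Col4a2 at 78.1, 35.8, 50.3 and 14.4, again lowest in HWAT. Col4a3 did not follow, with 29.9, 61.8, 45.2 and 66.3 CPM, nor did Col4a4 with 82.5, 130, 119 and 114. The share of Col4a3 and Col4a4 was thus 10.9% in EWAT and 37.6% in HWAT. After thinning, 28.3%, 26.8%, 28.1% and 12.0% of mesothelial-like nuclei had a Col4a6 UMI, against 0.496% of immune-like nuclei in EWAT and 0.829% in MWAT.

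Mesothelial-like nuclei of the depots also came from different clusters: cluster 8 held 96.6% in EWAT and 99.0% in NWAT, cluster 5 held 99.7% in HWAT, and clusters 9 and 15 held 60.1% and 37.0% in MWAT. Within MWAT the clusters differed, since Col4a6 was at 483 CPM in cluster 9 and 111 CPM in cluster 15, with Col4a1 at 43.6 and 68.3 CPM. Cluster 8, which 3 depots shared, had 361 CPM of Col4a6 in EWAT, 384 in MWAT and 359 in NWAT.

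**Figure D2:**
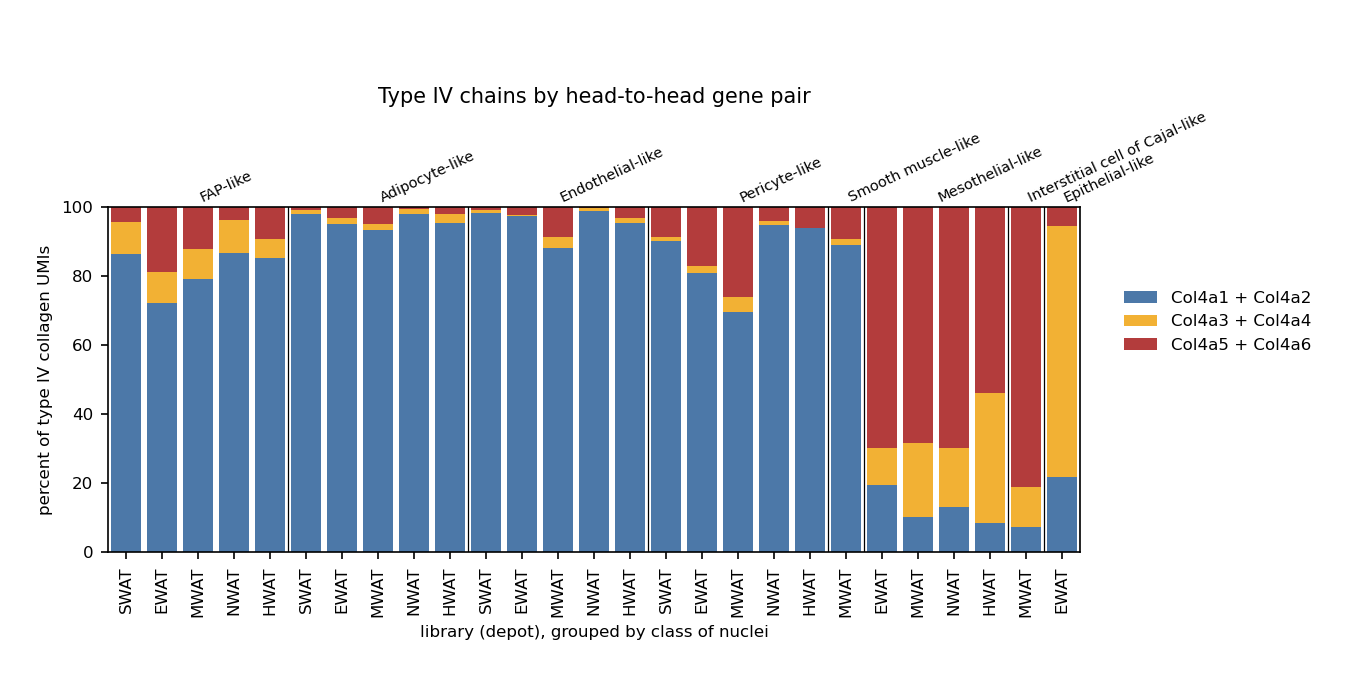
Bars give the share of type IV collagen UMIs (percent, axis from 0 to 100) from each head-to-head gene pair, by class of nuclei and library. Col4a1 and Col4a2 (blue) fill most of the FAP-like, adipocyte-like, endothelial-like and pericyte-like bars, while Col4a5 and Col4a6 (red) take 53.9% to 69.8% of the mesothelial-like bars and 81.2% of the interstitial cell of Cajal-like bar.

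In FAP-like nuclei Col4a5 and Col4a6 took 4.42% of type IV UMIs in SWAT, 18.8% in EWAT, 12.1% in MWAT, 3.61% in NWAT and 9.21% in HWAT. Col4a6 was at 3.90 CPM in SWAT, 130 in EWAT, 24.1 in MWAT, 16.9 in NWAT and 9.89 in HWAT, and EWAT exceeded SWAT by 33.4-fold (interval 16.7 to 78.1). Col4a5 was at 71.7, 232, 84.7, 68.3 and 45.5 CPM, also highest in EWAT. The 8 mesothelial markers summed to 7.81 CPM in FAP-like nuclei of SWAT with 4 of them at 0, 224 in EWAT, 307 in MWAT, 122 in NWAT and 579 in HWAT. The depots with the highest sums, HWAT and MWAT, had less Col4a6 than EWAT, and the part of mesothelial RNA in the EWAT level was not tested. Col4a3 in FAP-like nuclei was at 62.9, 63.6, 23.0, 84.7 and 15.8 CPM and Col4a4 at 95.6, 113, 56.5, 144 and 17.8, with NWAT 8.07-fold above HWAT for Col4a4.

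Outside these classes, interstitial cell of Cajal-like nuclei of MWAT had 1131 CPM of Col4a6, 629 of Col4a5 and 167 of Col4a3, and Col4a5 with Col4a6 took 81.2% of type IV UMIs. Epithelial-like nuclei of EWAT were dominated by the Col4a3 and Col4a4 pair, with 168 and 205 CPM and 72.9% of type IV UMIs. Unnamed cluster 36 in SWAT, with 54 nuclei, had 368 CPM of Col4a4 and 114 of Col4a3. Pericyte-like nuclei had 62.4, 170, 182, 36.2 and 9.86 CPM of Col4a5 in SWAT, EWAT, MWAT, NWAT and HWAT. The last value rests on 1 UMI, which gives MWAT over HWAT a ratio of 18.4 with an interval of 3.15 to 745.

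Of the core type VI chains, Col6a1 and Col6a2 were highest in FAP-like nuclei among FAP-like, mesothelial-like, pericyte-like, endothelial-like and adipocyte-like nuclei in each depot. Col6a3 was highest there in SWAT, MWAT and NWAT, while pericyte-like nuclei were above FAP-like ones in EWAT and HWAT. Col6a1 was at 412 CPM in SWAT, 363 in EWAT, 367 in MWAT, 645 in NWAT and 255 in HWAT, and Col6a2 at 369, 290, 255, 476 and 168. Col6a3, whose cleaved tail is the adipose signal endotrophin, was at 745, 323, 342, 853 and 109 CPM, with SWAT and NWAT well above the rest. In pericyte-like nuclei Col6a1 was at 206, 206, 145, 416 and 168 CPM and Col6a3 at 340, 366, 263, 617 and 266, both highest in NWAT. Mesothelial-like nuclei had 257, 245, 212 and 82.9 CPM of Col6a1 in EWAT, MWAT, NWAT and HWAT. Col6a1 and Col6a2 correlated at 0.93 (Pearson) and 0.87 (Spearman) over the 43 points.

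The later type VI chains split the depots more sharply. Col6a5 (chromosome 9, 105856078 to 105960643, minus strand) was at 1.46 CPM in FAP-like nuclei of SWAT, 243 in EWAT, 7.32 in MWAT, 48.2 in NWAT and 37.6 in HWAT. EWAT stood alone at the top, 166-fold above SWAT (interval 56.4 to 807, on 3 UMIs in SWAT). Its neighbor Col6a6 (105687809 to 105828160) was at 15.1, 176, 41.8, 64.1 and 57.3 CPM, with EWAT 11.6-fold above SWAT (8.06 to 17.4). In mesothelial-like nuclei Col6a5 was at 245 CPM (EWAT), 11.5 (MWAT), 210 (NWAT) and 36.1 (HWAT), and Col6a6 at 149, 12.4, 120 and 45.2. Here EWAT and NWAT were both high and MWAT was low, by 21.3-fold (16.1 to 28.5) for Col6a5 and 12.1-fold (9.18 to 16.1) for Col6a6 against EWAT. After thinning, 17.1%, 0.762%, 17.8% and 3.07% of mesothelial-like nuclei had a Col6a5 UMI. The same share was 13.5%, 0.637%, 3.26% and 4.86% of FAP-like nuclei in EWAT, MWAT, NWAT and HWAT, and 1.20% of immune-like nuclei in EWAT.

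Within FAP-like nuclei of EWAT, Col6a5 reached 787 CPM in unnamed sub-cluster 9, which held 51 nuclei, all from EWAT. Col8a1 was at 735 CPM in the same sub-cluster. Col6a4 was near 0 in FAP-like nuclei and reached 124 CPM in interstitial cell of Cajal-like nuclei of MWAT, followed by 15.1 CPM in mesothelial-like nuclei of EWAT.

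**Figure D3:**
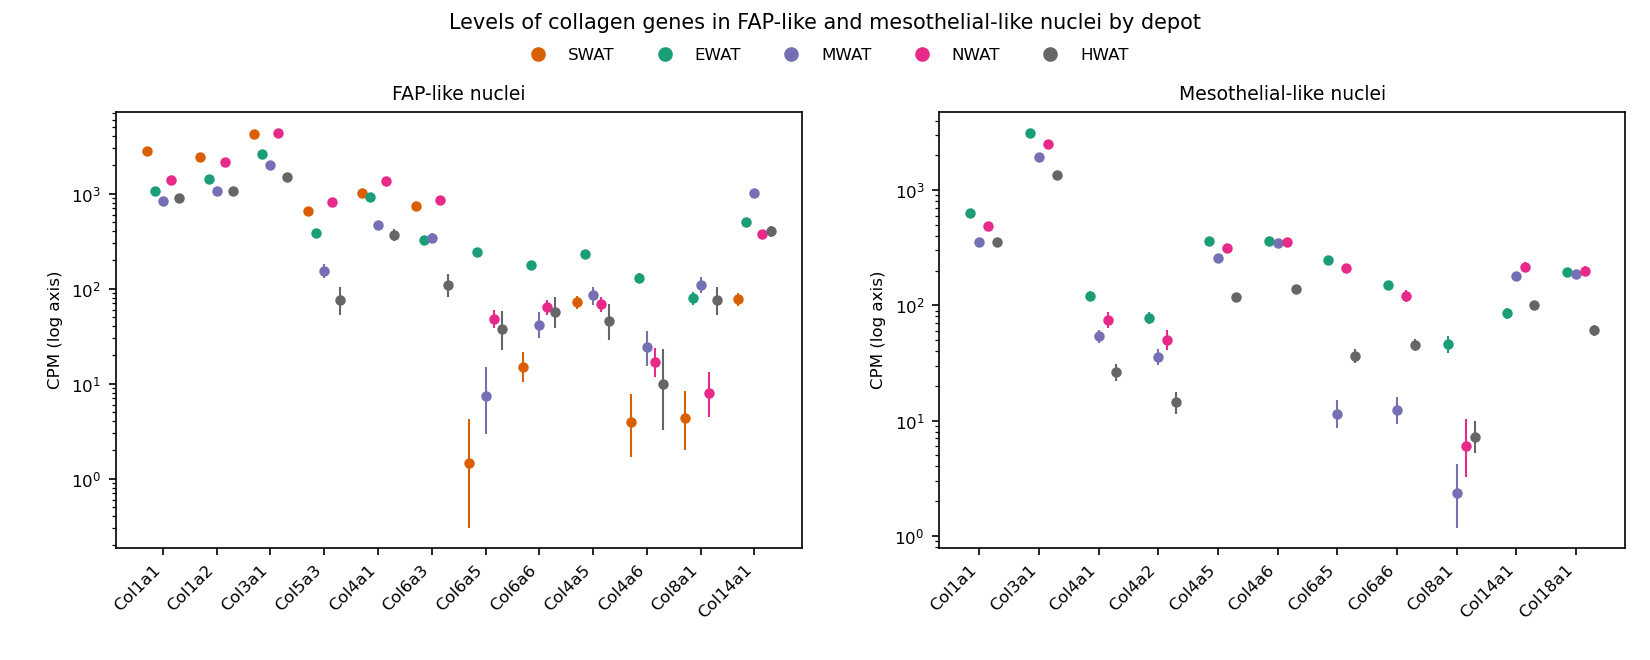
Points are the CPM (log axis) of selected collagen genes in FAP-like (left) and mesothelial-like nuclei (right), 1 point per library, with bars for the exact 95% Poisson interval. Col6a5 in FAP-like nuclei ranges from 1.46 CPM in SWAT to 243 in EWAT, and in mesothelial-like nuclei from 11.5 in MWAT to 245 in EWAT.

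Among the fibril-associated collagens, Col14a1 coats fibrils in stroma under tension and lies on chromosome 15 (55307750 to 55520803, plus strand). In FAP-like nuclei it was at 77.6 CPM in SWAT, 505 in EWAT, 1013 in MWAT, 375 in NWAT and 399 in HWAT. MWAT was highest and SWAT lowest, 13.1-fold apart, the opposite order to Col1a1. After thinning, 5.46%, 28.2%, 51.2%, 23.7% and 30.8% of FAP-like nuclei had a Col14a1 UMI, against 0.640%, 1.35%, 1.93%, 0.256% and 0.582% of immune-like nuclei. In mesothelial-like nuclei Col14a1 was at 85.2 CPM (EWAT), 181 (MWAT), 216 (NWAT) and 101 (HWAT).

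Col12a1, a relative of Col14a1, was at 8.29, 7.57, 32.4, 10.6 and 25.7 CPM in FAP-like nuclei, and at 461 CPM in Schwann or glia-like nuclei of MWAT. In mesothelial-like nuclei Col12a1 was at 5.03 CPM (EWAT), 10.9 (MWAT), 0 (NWAT) and 7.80 (HWAT), so MWAT was at least 7.78-fold above NWAT with 3 counts taken as the limit there. Col16a1 was at 17.1, 16.7, 37.6, 22.2 and 11.9 CPM in FAP-like nuclei, and at 113 CPM (SWAT) and 201 CPM (MWAT) in Schwann or glia-like nuclei. Col19a1, known from muscle and nerve, was at 53.0, 167, 226, 32.2 and 9.86 CPM in pericyte-like nuclei, high in the same 2 depots as the smooth muscle markers of that class. MWAT over HWAT was 23.0 (interval 3.95 to 923), with 1 UMI in HWAT. Col9a1 reached 59.2 CPM in interstitial cell of Cajal-like nuclei, Col9a2 114 CPM and Col20a1 64.4 CPM in Schwann or glia-like nuclei of MWAT.

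The multiplexins Col15a1 and Col18a1 lie in or beside basement membranes, and their tails are released as the vessel inhibitors restin and endostatin. Col15a1 was at 283, 290, 136, 341 and 259 CPM in FAP-like nuclei of SWAT, EWAT, MWAT, NWAT and HWAT. In adipocyte-like nuclei it was at 32.4, 87.4, 52.8, 83.2 and 12.7 CPM, 1.83-fold to 5.61-fold above immune-like nuclei. Col18a1 was at 80.0, 53.5, 48.1, 86.3 and 37.6 CPM in FAP-like nuclei and higher in pericyte-like nuclei at 225, 426, 170, 223 and 49.3. EWAT over HWAT was 8.64 (interval 3.63 to 27.0) for Col18a1 in pericyte-like nuclei, but 3.20 at a clustering resolution of 2 and 1.72 when each library was clustered by itself. Mesothelial-like nuclei had 194, 187, 199 and 60.8 CPM of Col18a1, level in EWAT, MWAT and NWAT.

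Col8a1 forms a hexagonal network under endothelium and lies on chromosome 16 (57624258 to 57754737, minus strand). In endothelial-like nuclei it was at 191 CPM in SWAT, 388 in EWAT, 92.0 in MWAT, 245 in NWAT and 123 in HWAT, 73.5-fold to 266-fold above immune-like nuclei. In pericyte-like nuclei it was at 155, 314, 117, 92.4 and 0 CPM, so EWAT was at least 10.6-fold above HWAT, which had 69 such nuclei. FAP-like nuclei split into a low pair, SWAT at 4.39 CPM and NWAT at 7.95, and a high group, EWAT at 78.7, MWAT at 109 and HWAT at 75.1. MWAT exceeded SWAT by 24.8-fold (interval 12.6 to 55.7). In mesothelial-like nuclei Col8a1 was at 45.8 CPM (EWAT), 2.34 (MWAT), 6.05 (NWAT) and 7.26 (HWAT), with EWAT 19.6-fold above MWAT (lower bound 10.6). Schwann or glia-like nuclei of MWAT had 399 CPM and unnamed cluster 36 in SWAT had 324 CPM.

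Of the transmembrane collagens, Col23a1 and Col25a1 reached 50 CPM. Col23a1 was at 8.71, 59.3, 56.0, 1.74 and 14.9 CPM in endothelial-like nuclei of SWAT, EWAT, MWAT, NWAT and HWAT, with EWAT 34.1-fold (interval 15.4 to 93.7) above NWAT. It reached 631 CPM in interstitial cell of Cajal-like nuclei, 94.0 in smooth muscle-like nuclei of MWAT and 114 in unnamed cluster 36 of SWAT. Col25a1, first known from amyloid plaques, was at 101 CPM in epithelial-like nuclei of EWAT and reached 416 CPM in unnamed cluster 29 of MWAT. Col28a1, a nerve-associated chain, was at 328 CPM (SWAT) and 96.6 CPM (MWAT) in Schwann or glia-like nuclei. In endothelial-like nuclei Col28a1 was at 26.5, 26.6, 7.77, 49.6 and 27.9 CPM, with NWAT 6.39-fold (3.97 to 10.9) above MWAT.

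The other large depot ratios of endothelial-like nuclei had low counts behind them. Col4a5 was at 2.68, 11.1, 18.0, 1.45 and 5.59 CPM, a ratio of 12.4 (lower bound 4.93) between MWAT and NWAT. Col5a3 was at 32.2, 28.2, 11.9, 46.4 and 0 CPM, so NWAT was at least 8.31-fold above HWAT. Col1a1 was at 105, 48.1, 51.1, 47.9 and 18.6 CPM, a ratio of 5.65 (3.03 to 11.9) between SWAT and HWAT, and immune-like nuclei of SWAT had more of it at 150 CPM.

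Sub-clusters placed several of these genes along the vessel wall. In arterial sub-clusters, named from Sox17, Efnb2, Hey1, Dll4 and Sema3g, Col8a1 was at 864 CPM in SWAT, 1325 in EWAT, 574 in MWAT and 1277 in NWAT. In capillary sub-clusters, named from Rgcc, Gpihbp1, Car4 and Cd300lg, Col8a1 was at most at 39.0 CPM (MWAT), an 81.4-fold gap in EWAT at 16.3 CPM. Col4a1 showed the opposite order, with 524, 617, 579 and 655 CPM in capillary and 193, 395, 201 and 302 in arterial sub-clusters. Col4a2 did so too, with 325, 471, 395 and 443 against 111, 242, 113 and 199 CPM. In EWAT and MWAT, part of the Col8a1 UMIs of endothelial-like nuclei lay outside the arterial and capillary sub-clusters. Unnamed sub-cluster 7, whose best-matching marker list was also arterial, held 136 nuclei in EWAT and 226 in MWAT.

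Col18a1 sided with Col8a1, at 122, 247, 123 and 184 CPM in arterial and 17.6, 21.1, 31.6 and 16.5 CPM in capillary sub-clusters. Col5a2 did as well, at 241, 153, 265 and 189 against 23.7, 21.1, 55.7 and 23.0 CPM. Col28a1 was a capillary transcript, at 51.9, 65.7, 24.1 and 79.0 CPM, against 8.86, 12.5, 14.7 and 11.5 in arterial sub-clusters and 0 UMIs in lymphatic ones. Col23a1 was at 331 CPM (EWAT) and 202 CPM (MWAT) in lymphatic sub-clusters, which had 225 and 428 nuclei there, and at most at 6.65 CPM in arterial and 3.71 CPM in capillary ones. SWAT, NWAT and HWAT had fewer than 50 lymphatic nuclei. Unnamed endothelial sub-clusters carried Col23a1 as well: in EWAT 125 UMIs lay in lymphatic nuclei, 64 in sub-cluster 10 (206 CPM) and 59 in sub-cluster 7 (181 CPM). In MWAT 90 lay in lymphatic nuclei and 38 in sub-cluster 5 (53.9 CPM).

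**Figure D4:**
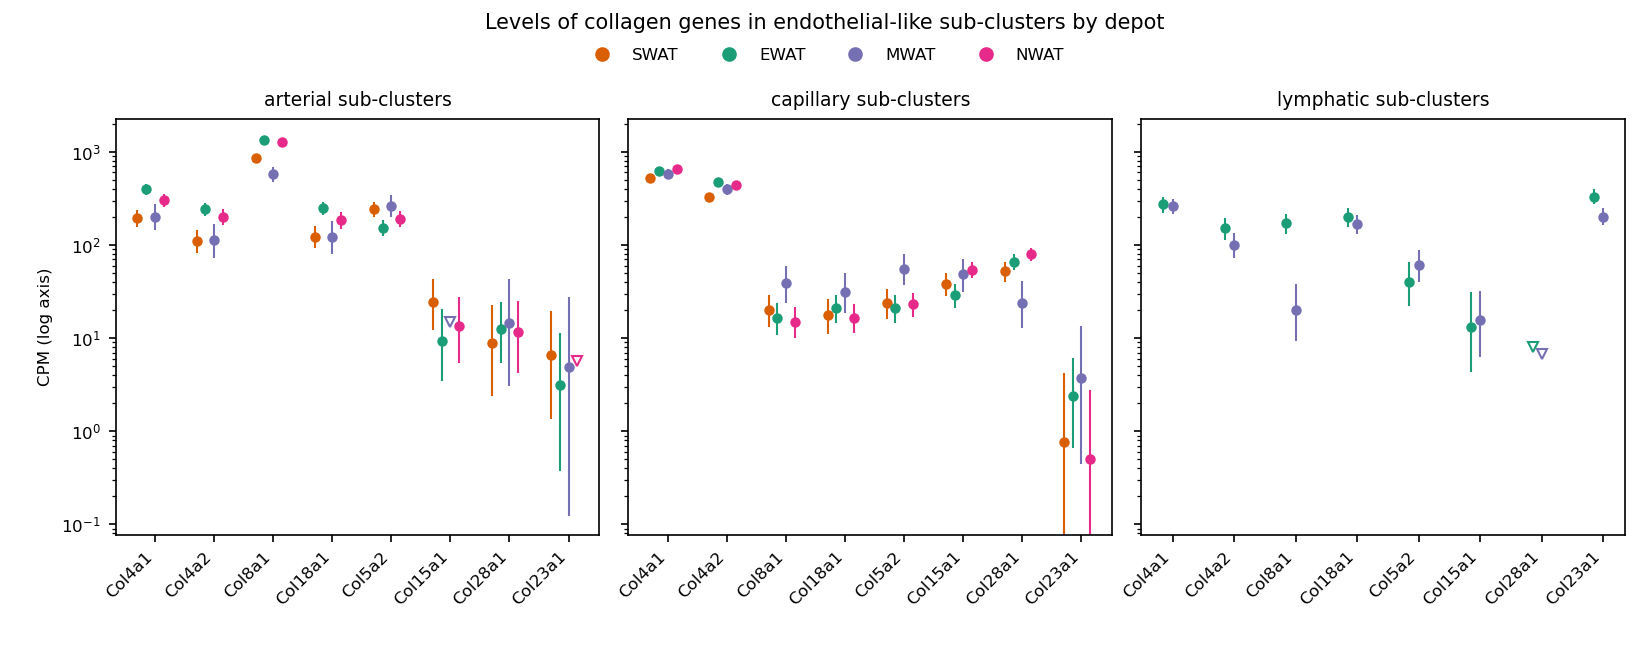
Points are the CPM (log axis) of 8 collagen genes in arterial, capillary and lymphatic sub-clusters of endothelial-like nuclei, 1 point per library with at least 50 nuclei, with exact 95% Poisson intervals, and open triangles mark the limit of 3 counts where no UMI was found. Col8a1 lies at 574 to 1325 CPM in arterial and at or below 39.0 CPM in capillary sub-clusters.

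Adipocyte-like nuclei stood above immune-like nuclei, beyond the interval in all 5 libraries, for 5 of 32 collagen genes with at least 20 UMIs, against 10.8% of all such genes. They were Col4a1, Col4a2, Col5a2, Col5a3 and Col15a1. Col5a2 was at 76.1, 74.0, 61.9, 57.5 and 20.6 CPM there, 1.63-fold to 4.62-fold the immune-like level. The same count was 20 of 27 in FAP-like nuclei, against 10.3% of genes, and 11 of 23 in pericyte-like nuclei, against 7.90%. It was 5 of 28 in endothelial-like nuclei, against 10.2%, the last being Col4a1, Col4a2, Col5a2, Col8a1 and Col18a1. A gene with no UMI in immune-like nuclei of any 1 library could not count, among members and among all genes. Col6a6 in FAP-like nuclei had a lowest ratio of 11.1 but an interval above 1 in 4 of 5 libraries, and was not counted. The pooled immune-like level also hides a spread between its classes. Basement membrane genes summed to 294, 375, 315, 292 and 270 CPM in adipocyte-like nuclei of SWAT, EWAT, MWAT, NWAT and HWAT. In T or NK cell-like nuclei alone they summed to 170, 367, 97.0, 166 and 42.5 CPM, so the 2 classes were close in EWAT, on 66 T or NK cell-like nuclei. The other 3 large depot ratios of adipocyte-like nuclei each had 1 UMI in the lower depot and levels near those of immune-like nuclei. They were Col4a6 with 6.89 CPM in MWAT against 0.0777 in SWAT (ratio 88.7, interval 15.1 to 3589), Col6a5 with 6.56 in EWAT against 0.0777 in SWAT (84.4, 14.9 to 3361), and Col8a1 with 6.24 in EWAT against 0.264 in HWAT (23.6, 4.16 to 940). Immune-like nuclei had more of 2 of these genes, 10.0 CPM of Col4a6 in MWAT and 8.72 CPM of Col6a5 in EWAT. The source of these UMIs in adipocyte-like nuclei was not tested.

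**Figure D5:**
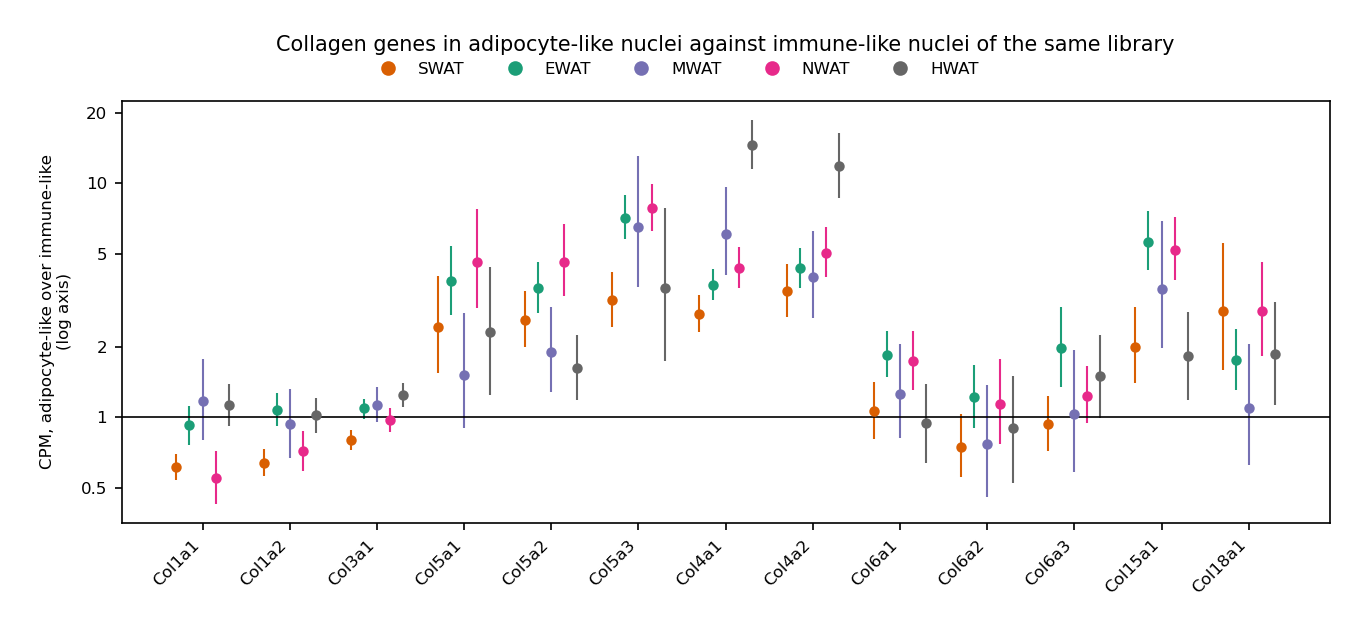
Points give the CPM of 13 collagen genes in adipocyte-like nuclei divided by that in immune-like nuclei of the same library (log axis), with exact 95% intervals, and the line marks a ratio of 1. Col4a1, Col4a2, Col5a2, Col5a3 and Col15a1 lie above the line in all 5 libraries, while Col1a1 spans 0.551 to 1.17.

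Across the family, each depot was compared with the mean of the others on a log2 scale with 0.5 counts added, for genes with at least 20 UMIs in the class, and a 2-fold difference was counted. In FAP-like nuclei 27 of the 44 members entered. For SWAT, 3 were higher (Col1a1, Col5a3, Col6a3) and 6 lower (Col4a6, Col6a5, Col6a6, Col8a1, Col14a1, Col28a1), against 5.58% and 6.59% of 12967 genes. In EWAT, 6 were higher (Col4a5, Col4a6, Col6a5, Col6a6, Col8a1, Col28a1) and 2 lower, against 4.99% and 4.10% of genes. MWAT had 4 higher (Col8a1, Col12a1, Col14a1, Col16a1) and 4 lower, against 6.35% and 5.43%. NWAT had 7 higher, among them Col4a1, Col4a2, Col4a3 and Col4a4, and 1 lower (Col8a1), against 3.89% and 6.90%.

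HWAT had 3 members higher (Col8a1, Col12a1, Col28a1) and 10 lower in FAP-like nuclei, against 10.4% and 11.9% of genes. The 10 included all 6 type IV genes along with Col3a1, Col5a1, Col5a3 and Col6a3. The median of the members was −0.76 in HWAT, against −0.05 for all genes. In HWAT the FAP markers summed to 15314 CPM, the highest of the depots, of which Dcn alone gave 9124. Markers of other cell types were also higher in FAP-like nuclei of HWAT: the 6 B cell markers summed to 178 CPM, against 0.505 to 12.5 elsewhere, the 7 macrophage markers to 488 against 146 to 262, and the 8 mesothelial markers to 579 against 7.81 to 307. Their part in the collagen levels was not tested. The medians were 0.36 in SWAT, 0.39 in EWAT, −0.28 in MWAT and 0.55 in NWAT, against −0.05 to 0.08 for all genes. With HWAT left out of the comparison, chosen after seeing the data, the higher calls in FAP-like nuclei went from 23 to 13 and the lower calls from 23 to 15, and NWAT had 2 higher.

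In mesothelial-like nuclei 32 members entered, and HWAT again had more lower (10) than higher (3), against 12.7% and 5.79% of 14949 genes. EWAT had 6 higher and 1 lower, against 6.26% and 4.77%. MWAT had 5 of each, against 8.25% and 4.13%, and NWAT 4 of each, against 4.67% and 7.23%. The medians were 0.54 in EWAT, 0.22 in MWAT, 0.25 in NWAT and −0.77 in HWAT, beside 0.05, 0.05, 0.09 and −0.17 for all genes. Col4a1, Col4a2, Col4a5 and Col4a6 were among the 10 that were lower in HWAT.

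Adipocyte-like nuclei had 32 members entered. In HWAT 8 members were higher and 10 lower, against 12.2% and 19.2% of 16696 genes, with a median of 0.00 against −0.23 for all genes, although the summed collagen level was lowest in HWAT, at 642 CPM. The lower ones included Col5a1, Col5a2, Col5a3, Col6a1, Col6a2 and Col15a1, while Col4a1 and Col4a2 were not called. SWAT had 1 higher (Col1a1) and 9 lower, against 5.13% and 6.37%. EWAT had 8 higher and 3 lower, against 7.79% and 5.11%. MWAT had 8 higher and 0 lower, against 10.5% and 4.17%, and NWAT 3 higher and 9 lower, against 4.23% and 12.3%. Part of these calls sit at the immune-like level, as for Col1a1 and Col4a6 above.

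A gene was also called for a class when it was at least 2-fold above every other named class in every library with 50 nuclei of that class. Of the members, 8 genes gave 9 calls, and all fell in classes seen in 1 or 2 libraries. Schwann or glia-like nuclei had 2 of 22 members tested, Col11a1 (618-fold above the next class in SWAT, interval 109 to 24640, and 89.8-fold in MWAT, 24.6 to 745) and Col16a1 (6.61-fold and 5.33-fold), against 2.32% of all genes. Interstitial cell of Cajal-like nuclei had 5 of 16, against 2.20% of genes. These were Col6a4 (73.0-fold, interval 35.4 to 175), Col23a1 (6.71-fold, 5.86 to 7.68), Col4a6 (3.23-fold, 2.96 to 3.52), Col4a3 (2.71-fold) and Col4a5 (2.46-fold). Epithelial-like nuclei had 2 of 15, Col25a1 (5.55-fold, 2.61 to 14.1) and Col4a3 (2.65-fold, 2.10 to 3.34), against 5.07% of genes. Col4a3 was called for both classes because the rule compares classes within a library. It was at 167 CPM in interstitial cell of Cajal-like nuclei of MWAT and 168 CPM in epithelial-like nuclei of EWAT. All folds above are against the observed CPM of the next class, which for Col11a1 rests on at most 3 UMIs. The call itself set every class under 3 counts at 3 counts, a high limit in small classes. Against that limit the folds of Col11a1, Col16a1, Col6a4 and Col25a1 would be smaller.

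No member was called for the other 10 classes. The background there was 0.491% for adipocyte-like, 0.301% for FAP-like, 0.482% for mesothelial-like, 0.583% for endothelial-like and 0.283% for pericyte-like nuclei. It was 0.626% for smooth muscle-like, 0.779% for macrophage-like, 0.638% for B cell-like, 0.790% for T or NK cell-like and 6.60% for skeletal muscle-like nuclei. FAP-like nuclei had no call although the collagen total was highest there. For each member tested, another class lay within 2-fold in some library, with classes under 3 counts set at 3 counts. In MWAT, B cell-like and T or NK cell-like nuclei held only 63283 and 61884 UMIs. This limit therefore barred members with low levels in FAP-like nuclei, whatever their level in other classes. The number of calls was 3 without doublet removal and 18 at a higher removal rate, so it moves with this choice.

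Within FAP-like nuclei, the Dpp4-type progenitors that line tissue septa (Dpp4, Pi16, Cd55) could be compared with the rest in 4 depots, on 76 nuclei in SWAT, 311 in EWAT, 185 in MWAT and 182 in NWAT. Col14a1 was higher in them in all 4, at 410 against 56.1 CPM in SWAT, 1082 against 244 in EWAT, 1806 against 767 in MWAT and 1102 against 169 in NWAT. Col15a1 was lower in all 4, at 80.3 against 296, 66.4 against 391, 39.8 against 166 and 36.0 against 427 CPM. Col1a1, Col4a2 and Col4a3 were also lower in all 4, with ratios of 0.519 to 0.830, 0.240 to 0.589 and 0 to 0.210. Outside the Dpp4 type, Col14a1 still ran from 56.1 CPM in SWAT to 767 in MWAT, so SWAT was below MWAT outside those nuclei too. Col1a1 peaked at 8564 CPM in unnamed sub-cluster 8 of SWAT and at 4667 CPM in unnamed sub-cluster 6 of SWAT.

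The other genes of the collagen pathway were taken from 6 lists with 70 genes, all of them in the matrices: 21 for folding and modification, 8 for propeptide processing, 6 for cross-linking, 13 receptors, 12 for degradation and its inhibitors, and 10 basement membrane partners. By the class rule, 6 were called. In FAP-like nuclei these were the receptor Ddr2 at 506, 851, 965, 872 and 607 CPM, the propeptidase Adamts2 at 242, 507, 268, 500 and 283, the gelatinase Mmp2 at 259, 113, 99.3, 232 and 239, and the linker Nid1 at 397, 657, 572, 1059 and 421. In mesothelial-like nuclei they were P3h4, a partner of lysyl hydroxylation, at 92.9, 121, 94.5 and 99.4 CPM, and Nid2 at 301, 137, 359 and 132.

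Of 66 pathway genes tested in FAP-like nuclei, 2 were higher and 16 lower in HWAT by 2-fold, with a median of −0.30. Of all genes 10.4% were higher and 11.9% lower there, with a median of −0.05. The counts were 3 and 4 in SWAT (5.58% and 6.59% of all genes), 6 and 3 in EWAT (4.99% and 4.10%), 5 and 7 in MWAT (6.35% and 5.43%), and 7 and 5 in NWAT (3.89% and 6.90%). The largest depot ratio was that of the matrix protease Mmp3, at 377 CPM in SWAT, 6.06 in EWAT, 50.2 in MWAT, 142 in NWAT and 15.8 in HWAT, or 62.3-fold (interval 35.4 to 121) between SWAT and EWAT. The procollagen peptidase Adamts3 was next at 7.32, 30.8, 68.0, 10.6 and 33.6 CPM. In mesothelial-like nuclei the protease inhibitor Timp4 was at 51.2, 9.59, 60.5 and 4.08 CPM and the cross-linking enzyme Lox at 67.4, 24.7, 38.6 and 6.02, both lowest in HWAT.

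In endothelial-like nuclei the type IV collagen receptor Adgrg6 was at 56.9, 62.9, 377, 51.7 and 46.6 CPM, highest in MWAT. The MWAT sub-cluster of 593 endothelial-like nuclei was led by Adgrg6. The protease Ctsk was at 5.72 CPM in MWAT and 42.8 in HWAT. Pericyte-like nuclei had 891, 750, 133, 762 and 266 CPM of Timp4, and 64.3, 123, 40.4, 44.2 and 0 CPM of the lysyl hydroxylase Plod2. Adipocyte-like nuclei had 2.33, 2.08, 5.71, 0.701 and 2.38 CPM of Adgrg6. Their Mmp3 was 6.91 CPM in SWAT and 0.0533 in EWAT, on 1 UMI, the same 2 depots that were highest and lowest in FAP-like nuclei.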

How the data were processed

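Nuclei of 5 pooled adipose tissue samples, 1 library per depot, were sequenced from the 3′ end with the 10x method. The deposited values are raw UMI counts per gene and nucleus, and per the file headers the authors' Cell Ranger run was version 6.0.1. The names mm10 and Seurat are named in the submitters' processing notes. The annotation release, the counting of introns and the use of strand are not given in the sources used here.

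Nuclei with fewer than 200 genes or over 10% mitochondrial UMIs were removed, as were doublets, scored against simulated pairs at 0.8% per 1000 nuclei. The rest were clustered jointly (igraph 0.11.9, leidenalg 0.10.2, resolution 1) from 2000 variable genes and 40 components, leaving out collagen genes, and named from fixed marker lists. UMIs were summed per class and library. CPM have exact Poisson intervals, shares Clopper-Pearson intervals and ratios conditional binomial intervals, at 95% (numpy 2.4.6, scipy 1.17.1, pandas 2.3.3, Python 3.11.15). A gene with no UMI was set at a limit of 3 counts. With 1 library per depot, no test was made and depth alone sets the precision. The calling of differences was tested on simulated data. Gene positions are from GENCODE on GRCm38. The values named are those of genes at 50 CPM or more on 20 UMIs in the classes where they are highest, of the 5 members per class with the largest depot ratio on 100 UMIs, of members called for a class, and of pathway genes called for a class or with the 2 largest depot ratios. The alternatives changed the doublet and quality filters, the clustering, the UMI minimum, the averaging and the background. The members and lists were chosen with earlier results of these data known. HWAT was left out of comparisons as an alternative chosen after seeing the data.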

Additional observations from a re-analysis of the deposited data

How the results depend on the processing

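Depth limits genes under about 20 UMIs in a class, and all intervals cover counting error only. No paired analysis was possible because each depot has 1 library. Of the values compared with the alternatives, 117 values of the main results stayed within the interval or close to the count and 30 moved. Of the others, which are single-gene depot ratios and counts of FAP-like calls by depot, 278 stayed, 26 moved and 2 reversed. The single-gene depot ratios alone gave 208 values for 22 results, of which 195 stayed, 11 moved and 2 reversed. The collagen total of FAP-like over adipocyte-like nuclei was 8.46 in MWAT and 16.2 in NWAT. It was 8.03 and 15.5 with no doublets removed, 8.15 and 15.6 with at least 500 genes, 7.89 and 15.9 as a mean over nuclei, and 17.6 and 25.5 with the immune-like level subtracted. In MWAT it was 9.01 with at most 2% mitochondrial UMIs, and in NWAT 16.9 with more doublets removed and 15.3 with each library clustered by itself. That clustering also gave 2.26 for FAP-like NWAT over HWAT, against 2.44. The basement membrane share of adipocyte-like EWAT, 31.8%, was 32.5% with no doublets removed, 30.3% as a mean over nuclei and 40.1% after subtraction. The Col4a5 and Col4a6 share of mesothelial-like EWAT, 69.8%, was 76.7% after subtraction. Without thinning, 35.2% of adipocyte-like EWAT nuclei had a Col4a1 UMI. Members called for a class, 9, were 3 with no doublets removed and 18 with more removed, where pathway calls were 15 against 6. Summed over depots, higher calls were 28 in adipocyte-like nuclei (17 with at least 100 UMIs, 44 with no minimum), 18 in mesothelial-like (11 with at least 100 UMIs and 11 without HWAT) and 23 in FAP-like nuclei (45 with no minimum, 13 without HWAT). Lower calls were 23 in FAP-like (48 with no minimum, 15 without HWAT), 31 in adipocyte-like (19 without HWAT) and 20 in mesothelial-like nuclei (7 without HWAT). With the immune-like level subtracted, Col4a6 in MWAT and Col6a5 in EWAT were 0 in adipocyte-like nuclei, so their depot ratios were 0. The causes were not tested, except that a lower minimum and leaving HWAT out change the genes or depots compared. Sub-clusters were made in the main clustering only.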
